A study of Rattus norvegicus with 12 samples.

Results

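Esrrb, Tfcp2l1, Sall4 and Tfap2c are transcription factor genes that belong, with the Klf and Sox factors, to the regulatory network of pluripotent cells. Their levels were described across 6 rat cell lines or cultures on 12 Affymetrix arrays. Each of the 4 genes had a single probe set that named no other gene, so 4 of the 31099 probe sets carry these results, and no second probe set could be set beside any of them. The genes were chosen by their levels across these same 6 lines, as seen in earlier results. Their differences between lines are therefore given as a description, without p-values, except for pairs of lines with similar profiles.

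A1 and A2 are the induced pluripotent stem (iPS) cell lines of the study, of the FHH rat strain, and the series title names a transposon system for their making. The arrays labelled ES held the embryonic stem cell lines DAC2 and DAC8, with no strain given, and the arrays labelled EF held FHH embryonic fibroblast cultures REF1 and REF2, made from e14.5 embryos. Each line or culture had 2 arrays. RNA came from iPS and ES cells 5 days after passage in 2i medium, which blocks MEK and GSK3, and from fibroblasts 6 days after passage in MEF medium. Growth of the iPS lines on mitomycin-treated mouse fibroblasts with LIF is recorded. The labels state neither a removal of these feeder cells nor separate cultures behind a line's 2 arrays, so p-values between lines measure only the spread between arrays.

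Naive pluripotent cells of rodents keep their identity through a set of transcription factors that bind near each other's genes. Esrrb, an orphan nuclear receptor, and Tfcp2l1, a CP2-family factor, are outputs of GSK3 inhibition and of LIF-STAT3 signalling in mouse ES cells. They are markers of the naive state. Sall4, a zinc finger protein that recruits the NuRD co-repressor complex, and Tfap2c, an AP-2 factor, have a wider range, since both also act in germ cells and Tfap2c acts in trophoblast.

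Levels are log2 signals, on which array medians lay between 5.28 and 5.41. Any level under 5 was treated as not distinguishable from background. Folds against such a level were computed with values below 5 set to 5, and are lower bounds. Differences were fitted over 10510 genes in limma.

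The arrays of DAC8 and REF2 did not match their labels in marker genes, and the 4 genes are given by line for that reason. The iPS label of A1 and A2 was not borne out by these markers either, with neural markers high and epithelial markers low. Of 18 fibroblast markers, 17 lay at or above 5 on both arrays in DAC8 and in REF1, against 7 in A1, 7 in A2, 4 in DAC2 and 3 in REF2. Postn, a fibroblast matrix protein, averaged 3.61 in A1, 3.48 in A2, 3.79 in DAC2, 13.61 in DAC8, 13.74 in REF1 and 3.45 in REF2. All 10 epithelial markers reached 5 in DAC2 and REF2, whereas at most 1 did in A1, A2, DAC8 or REF1. Of 14 neural markers, 13 reached 5 in A1 and in A2, among them Elavl4 at 10.70 and 10.64, against 4 in DAC2, 7 in DAC8, 7 in REF1 and 6 in REF2. The 3' minus 5' difference of the beta-actin control, a sign of RNA quality, was 0.84 to 0.87 in the iPS arrays, 0.88 in DAC2, 0.45 to 0.52 in DAC8, 0.42 to 0.48 in REF1 and 0.94 to 1.05 in REF2. The same difference for the GAPDH control was -0.12 to 0.04 over all arrays. The beta-actin difference was thus smaller in DAC8 and REF1, the lines with all 4 genes below 5, than in the other lines. It was nearly equal between the iPS arrays and DAC2. Its part in the levels of any line was not tested. No array was moved to another label.

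The 4 genes fell into a pair that the iPS lines lacked and a pair that they carried. Esrrb and Tfcp2l1 were high in DAC2 and REF2 and below 5 on every other array. Sall4 and Tfap2c were high in DAC2 and REF2, intermediate in A1 and A2 and below 5 in DAC8 and REF1. In RNA from whole cultures, fewer expressing cells and less RNA per cell cannot be told apart.

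**Figure D1:**
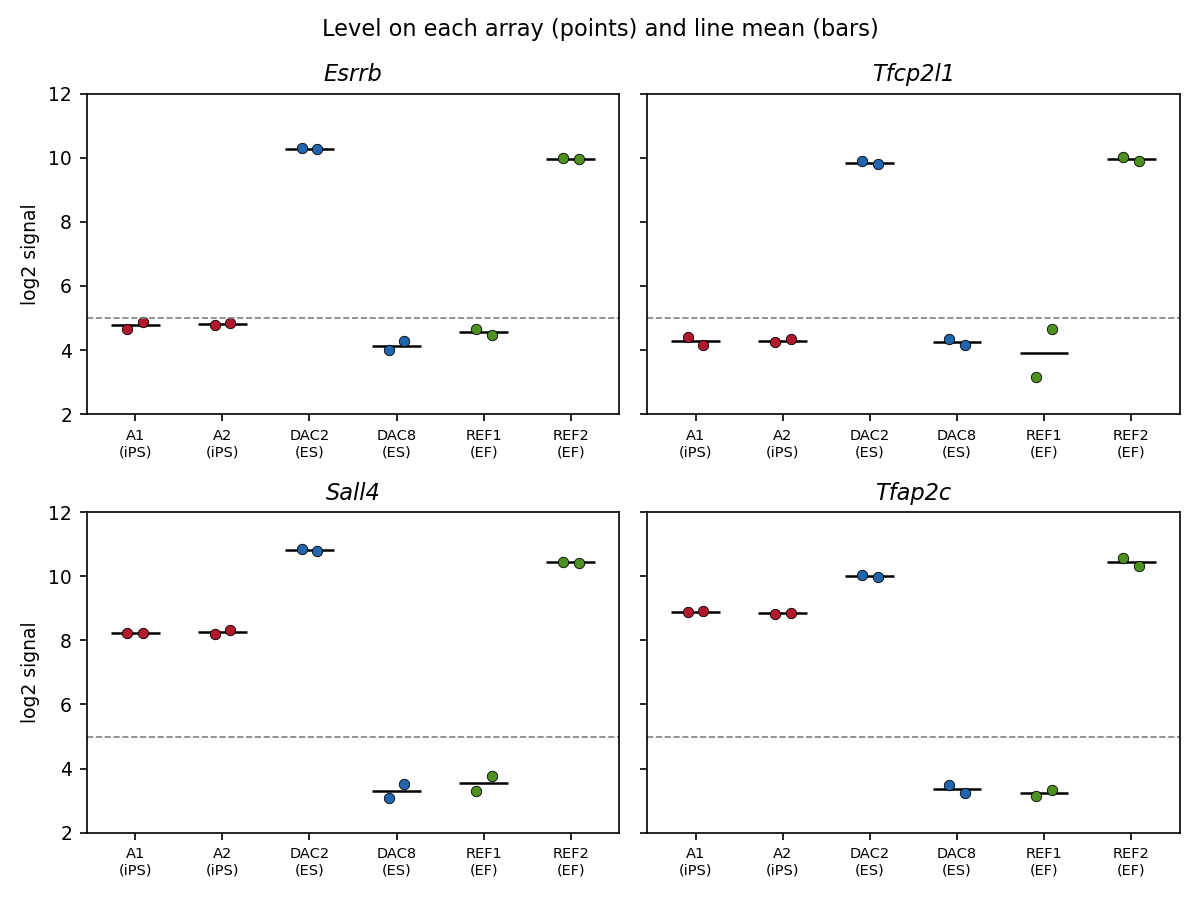
Level of each of the 4 regulators (vertical axis, log2 signal) in the 6 lines or cultures (horizontal axis, with the labelled cell type). Points are single arrays, black bars are means of 2 arrays and the dashed line marks 5. Esrrb and Tfcp2l1 lie above the dashed line in DAC2 and REF2, and Sall4 and Tfap2c also in A1 and A2.

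Esrrb measured 4.66 and 4.88 on the A1 arrays, 4.79 and 4.85 on the A2 arrays, 10.29 and 10.28 on the DAC2 arrays, 4.0 and 4.29 on the DAC8 arrays, 4.65 and 4.46 on the REF1 arrays and 9.98 and 9.94 on the REF2 arrays. The values thus formed a high set of 4 arrays and a low set of 8, with no overlap. Against DAC2, Esrrb in the iPS lines was at least 38.9-fold lower, and against REF2 at least 31.2-fold lower. No fold is given between the iPS lines and DAC8 or REF1, since all of these arrays lay below 5.

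Tfcp2l1 showed the same division. It measured 4.40 and 4.16 in A1, 4.24 and 4.35 in A2, 9.89 and 9.79 in DAC2, 4.35 and 4.16 in DAC8, 3.15 and 4.67 in REF1 and 10.01 and 9.88 in REF2. The iPS arrays overlapped those of DAC8 and REF1 and stood apart from those of DAC2 and REF2. Tfcp2l1 in the iPS lines was at least 28.7-fold lower than in DAC2 and at least 30.8-fold lower than in REF2. The REF1 arrays were the least alike, at 3.91 ± 1.08 (mean ± SD, n = 2), but both lay below 5.

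Because Esrrb and Tfcp2l1 moved together, the sequence before their annotated starts is shown. RefSeq promoter windows on the assembly GRCr8 were at hand for these 2 of the 4 genes. Each line gives the 250 bases before the start, 5′ to 3′ on the gene's strand, for Esrrb at chr6:111738412-111738661 (plus strand) and Tfcp2l1 at chr13:32286393-32286642 (plus strand). Capitals mark matches to CCNCNCCC, a box that Klf factors can bind. Binding of any factor to these windows was not tested.
Esrrb: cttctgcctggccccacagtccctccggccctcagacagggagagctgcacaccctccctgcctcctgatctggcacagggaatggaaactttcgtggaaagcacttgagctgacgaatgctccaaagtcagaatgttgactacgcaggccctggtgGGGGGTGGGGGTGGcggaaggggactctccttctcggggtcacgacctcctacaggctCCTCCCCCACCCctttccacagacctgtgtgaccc
Tfcp2l1: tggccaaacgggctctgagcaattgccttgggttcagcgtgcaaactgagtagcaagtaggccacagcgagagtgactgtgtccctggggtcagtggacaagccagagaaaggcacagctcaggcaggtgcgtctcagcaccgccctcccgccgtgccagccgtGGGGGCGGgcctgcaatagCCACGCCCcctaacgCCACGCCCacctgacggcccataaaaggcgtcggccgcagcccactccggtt

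On both strands, CCNCNCCC matched the Esrrb window 5 times, with overlaps, between 93 and 24 bases before the start. It matched the Tfcp2l1 window 3 times, between 86 and 45 bases before the start. This box was chosen after the sequences were seen. Of the 33469 windows of that length, not matched for GC content, 42.8% hold it at least once. Neither window held AAGGTCA, the site of estrogen-related receptors (4.0% of windows), GCCNNNGGC, the AP-2 palindrome (12.6%), or the paired CP2 site (23.1%), on either strand. The GC content was 62.0% for Esrrb and 64.8% for Tfcp2l1, against a median of 51.2% over all windows.

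Sall4 measured 8.21 and 8.22 on the A1 arrays, 8.19 and 8.32 on the A2 arrays, 10.84 and 10.79 on the DAC2 arrays, 3.07 and 3.51 on the DAC8 arrays, 3.32 and 3.78 on the REF1 arrays and 10.45 and 10.41 on the REF2 arrays. The iPS arrays formed a middle set that overlapped neither the high nor the low one. Sall4 in the iPS lines reached 16.7% of the signal of DAC2, a difference of -2.58 ± 0.14 (log2, ± SE), and 21.9% of that of REF2. It was at least 9.41-fold higher in the iPS lines than in DAC8 and at least 9.41-fold higher than in REF1.

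Tfap2c came closest to the level of DAC2 and REF2. Its values were 8.87 and 8.91 in A1, 8.82 and 8.86 in A2, 10.05 and 9.99 in DAC2, 3.48 and 3.24 in DAC8, 3.15 and 3.33 in REF1 and 10.56 and 10.32 in REF2. Again the iPS arrays lay between the others without overlap. In the iPS lines the signal was 44.9% of that in DAC2, a difference of -1.15 ± 0.09 (log2, ± SE), and 33.5% of that in REF2. Compared with DAC8 and with REF1, Tfap2c was at least 14.6-fold higher in the iPS lines.

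By a rule that called a factor shared when both arrays of an iPS line reached 5 and the line mean lay within 1 log2 unit of DAC2 or REF2, 0 of the 4 genes were shared. Sall4 and Tfap2c met the first condition in A1 and A2 and failed the second, while Esrrb and Tfcp2l1 failed the first. Setting the detection level at 6 left these answers as they were. Sall4 and Tfap2c were thus detected in the iPS lines as in DAC2 and REF2, at a lower level.

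The split of 2 genes carried and 2 not carried was close to that of other genes with the same contrast. At or above 5 on all arrays of DAC2 and REF2 and below 5 on all arrays of DAC8 and REF1 were 445 of the tested genes, the 4 regulators among them. Of these 445, 40.2% lay at or above 5 on all 4 iPS arrays and 49.4% below 5 on all 4. Within 1 log2 unit of both DAC2 and REF2 in A1 and A2 were 15.1%. The iPS mean minus the DAC2 mean had a median of -1.55 over the class, with quartiles at -3.27 and -0.28. Among the 61 genes of the class at 9 or above in DAC2, a limit chosen after the values were seen, 39.3% were carried by the iPS lines.

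**Figure D2:**
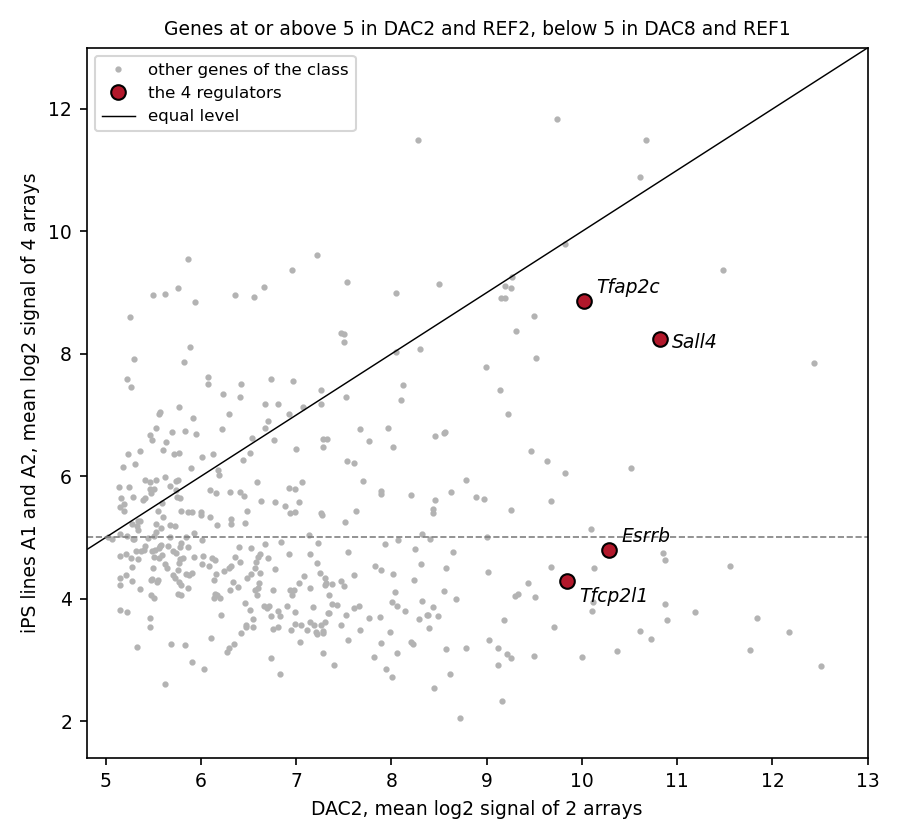
The 445 genes at or above 5 on all DAC2 and REF2 arrays and below 5 on all DAC8 and REF1 arrays, with the mean level in the iPS lines (vertical axis, log2 signal, 4 arrays) against that in DAC2 (horizontal axis, log2 signal, 2 arrays). The solid line marks equal levels and the dashed line marks 5. All 4 regulators (large points) lie below the solid line, with Sall4 and Tfap2c above and Esrrb and Tfcp2l1 below the dashed one.

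Between lines of similar profile the differences were small. In A1 against A2, where 1.94% of all genes were called (limma, adjusted p under 0.05), Sall4 differed by -0.03 ± 0.16 (log2 ± SE, adjusted p = 0.962) and Tfap2c by 0.05 ± 0.10 (adjusted p = 0.892). Esrrb and Tfcp2l1 lay below 5 in both lines, so no direction was read. Neither gene passed the threshold between the 2 iPS lines.

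In DAC2 against REF2, where 47.5% of genes were called, 2 of the 4 passed. Tfap2c was lower in DAC2, by -0.43 ± 0.10 (limma adjusted p = 0.00776), and Esrrb was higher in DAC2, by 0.32 ± 0.11 (adjusted p = 0.0375). Sall4 differed by 0.39 ± 0.16 (adjusted p = 0.0761) and Tfcp2l1 by -0.10 ± 0.37 (adjusted p = 0.844). The Esrrb call was lost without the filter on dim genes (adjusted p = 0.0554), after quantile normalization (0.0506) and without any 1 of the 4 arrays of these lines (0.0983 to 0.129), and the Tfap2c call without REF2 replicate 1 (0.0613). With an intensity trend Sall4 passed (adjusted p = 0.0221), and it also passed in 4 of the fits with 1 array left out. In DAC8 against REF1 all 4 genes lay below 5, and no direction was read.

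The order of the 6 lines follows from these values. For Sall4 it ran DAC2, REF2, A2, A1, where the arrays of A2 and A1 overlapped. For Tfap2c it ran REF2, DAC2, A1, A2, with no overlap but with A1 and A2 not differing in the test above. For both genes DAC8 and REF1 came below these lines and are not ordered between themselves, since they lay below 5. For Tfcp2l1 the arrays of REF2 and DAC2 overlapped, and the 8 low arrays are not ordered. For Esrrb DAC2 stood above REF2 without overlap, and the low arrays are again not ordered.

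By label, none of the 4 genes passed the test, but the test could hardly call them. Both ES and EF hold a high and a low line for every one of these genes, which were also chosen by these levels. No conclusion is drawn from the counts below. In iPS against ES, 4.84% of genes were called with the line as a random block in limma, and 0 of these 4, also at an unadjusted p under 0.05. Esrrb stood at -2.42 ± 1.78, Tfcp2l1 at -2.76 ± 2.47, Sall4 at 1.18 ± 2.26 and Tfap2c at 2.17 ± 2.10 (log2 difference ± SE, 4 arrays against 4). The ES mean of every one of these genes averages a high and a low line: for Sall4 it was 7.06 ± 4.35 (SD, n = 4), against 8.23 ± 0.06 in iPS. Without DAC8 the differences were -5.49 for Esrrb, -5.55 for Tfcp2l1, -2.58 for Sall4 and -1.15 for Tfap2c, so Sall4 and Tfap2c changed sign.

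In iPS against EF, where 5.35% of genes were called, 0 of the 4 passed either threshold. The differences were -2.47 ± 1.78 for Esrrb, -2.64 ± 2.47 for Tfcp2l1, 1.25 ± 2.26 for Sall4 and 2.02 ± 2.10 for Tfap2c, with the same iPS arrays as in the comparison with ES. Without REF2 they were 0.24, 0.38, 4.68 and 5.62 in that order, with all arrays below 5 for Esrrb and Tfcp2l1. In ES against EF 0% of genes were called, while 21 had an unadjusted p under 0.05. There the 4 regulators differed by -0.15 to 0.12, and each label held 1 high and 1 low line.

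Other pluripotency regulators were measured for 21 of 34 listed genes, and 18 were tested. The remaining 13 were not analysed here. In the iPS lines against DAC2, where 42.9% of all genes were lower and 39.2% higher, 16 of the 18 were lower and 0 higher (1 at an unadjusted p under 0.05), with a median difference of -2.27 against -0.06 over all genes. In the iPS lines against REF1, where 48.6% of all genes were higher and 34.2% lower, 11 were higher and 4 lower, with a median of 0.49 against 0.15. In iPS against ES, where 1.75% of all genes were lower, Klf2 (-7.32 ± 0.81, limma adjusted p = 0.00038) and Klf4 (-2.86 ± 0.57, adjusted p = 0.0127) were lower and 0 genes were higher, also at an unadjusted p under 0.05. In iPS against EF, where 2.1% were lower, Klf2 was the 1 gene called (-7.13 ± 0.81, adjusted p = 0.000421).

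Several of these genes shared a pattern with one pair or the other. Gbx2, a homeobox factor of the naive network, followed Esrrb and Tfcp2l1, with 4.11 and 3.99 in A1 and A2, 9.30 in DAC2, 3.09 in DAC8, 3.29 in REF1 and 9.47 in REF2 (line means, log2 level). Sox2, which acts in pluripotent cells and in neural progenitors, lay like Sall4 in between, with 9.43 and 9.31 in A1 and A2, 11.48 in DAC2, 4.79 in DAC8, 3.86 in REF1 and 11.57 in REF2. Lin28a, an RNA-binding protein that blocks let-7 maturation, measured 5.34 and 5.85 in A1 and A2, 9.67 in DAC2, 3.23 in DAC8, 2.96 in REF1 and 8.17 in REF2. It was the 1 regulator among the 8 with the widest range whose level differed by over 1 log2 unit between DAC2 and REF2 (1.51 ± 0.13, limma adjusted p = 3.37e-05).

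Klf2 and Klf5, zinc finger factors that can replace one another in mouse ES cells, were lower in the iPS lines than in DAC8 and REF1 as well as DAC2 and REF2 (limma adjusted p of 5.76e-08 or less). Klf2 was at 4.22 and 3.64 in A1 and A2, 12.13 in DAC2, 10.36 in DAC8, 9.81 in REF1 and 12.30 in REF2. Klf5 was at 4.91 and 5.33 in A1 and A2, 11.60 in DAC2, 7.06 in DAC8, 7.48 in REF1 and 11.47 in REF2. Jarid2, a subunit of the Polycomb complex PRC2, and Mybl2, a cell cycle factor, were intermediate in the iPS lines, with Jarid2 at 9.98 and 9.87 against 11.51 in DAC2 and 7.99 in REF1, and Mybl2 at 8.50 and 8.42 against 10.90 in DAC2 and 6.86 in REF1. Tbx3, a T-box factor, was at 4.87 and 4.89 against 8.91 in DAC2 and 5.20 in REF1. Several probe sets of a gene did not always show the same range: for Klf2 only 2 of 5 showed the low iPS level.

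**Figure D3:**
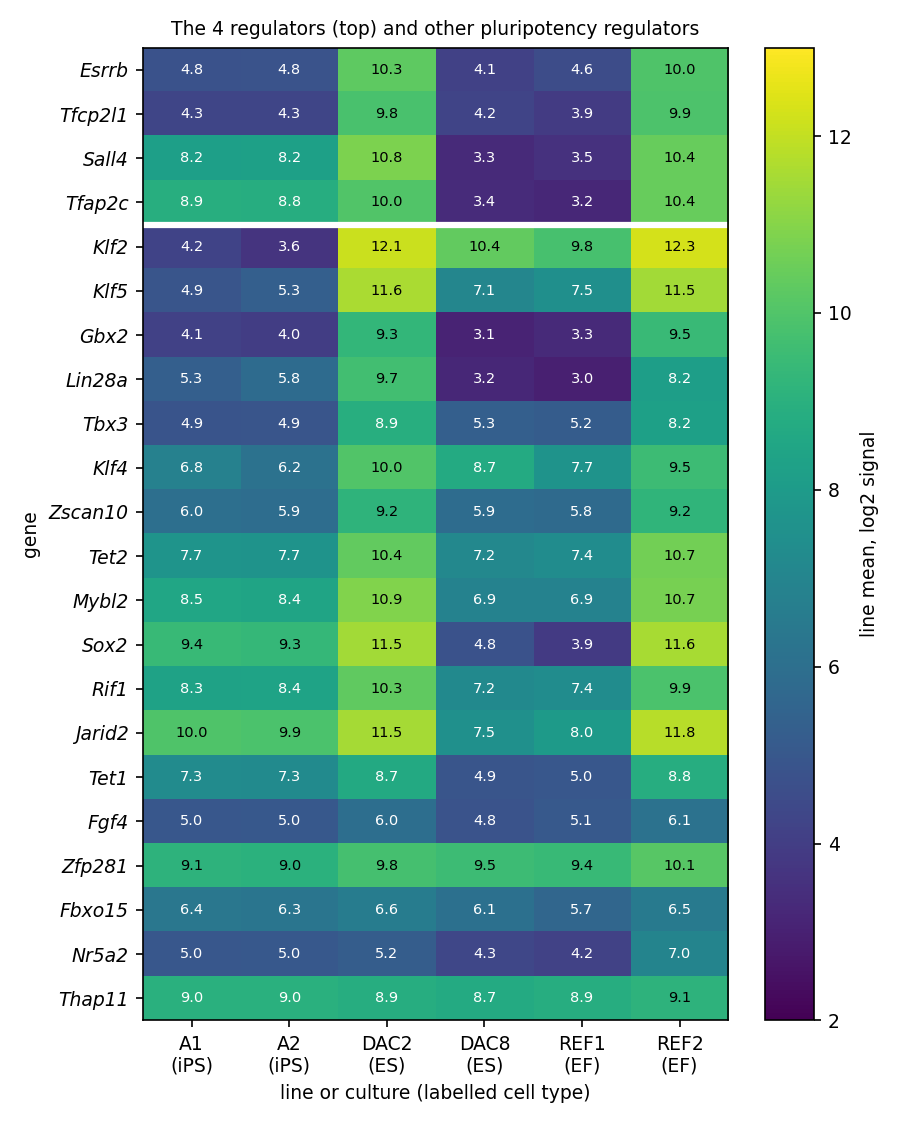
Line means (colour and number, log2 signal) of the 4 regulators (top rows) and of the 18 tested other pluripotency regulators (lower rows, ordered by DAC2 minus the iPS lines) in the 6 lines or cultures (columns). Rows are comparable across columns, not with each other. DAC2 and REF2 differ most for Nr5a2 and Lin28a (-1.73 and 1.51), and Sox2, Jarid2 and Mybl2 are intermediate in A1 and A2, as are Sall4 and Tfap2c.

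Of 14 listed relatives of the 4 genes, 11 were measured and 8 tested, with 4 higher and 2 lower in the iPS lines than in DAC2, against 39.2% higher and 42.9% lower over all genes. Esrra, a receptor of metabolic control, was near level, at 7.53 in A1, 7.54 in A2, 7.32 in DAC2, 7.39 in DAC8, 7.05 in REF1 and 7.28 in REF2. Esrrg, the remaining member of that family, reached 5.29 in DAC8 and 5.23 in REF1 and stayed below 5 in the other lines. Its second probe set showed a wider contrast, at 6.2 in DAC8 and 6.17 in REF1 against 2.8 to 3.54 in the other lines. Among CP2 factors, Tfcp2 was at 7.14 and 7.21 in A1 and A2, 7.39 in DAC2, 6.25 in DAC8, 5.91 in REF1 and 7.90 in REF2, and Ubp1 spanned only 0.61 over the lines. Grhl3, a grainyhead factor of surface epithelium, was highest in the iPS lines, at 7.31 in A1 and 6.78 in A2, against 5.57 in DAC2, 4.43 in DAC8, 3.97 in REF1 and 5.46 in REF2.

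The AP-2 family divided by line. Tfap2b, a factor of neural crest and of GABAergic midbrain neurons, was at 9.72 ± 0.24 in A1 and 9.82 ± 0.07 in A2 (SD, n = 2), against 4.56 in DAC2, 5.22 in DAC8, 5.3 in REF1 and 4.33 in REF2. It was the only tested relative called by label, higher in iPS than in ES by 4.87 ± 0.76 (limma adjusted p = 0.00346) and than in EF by 4.95 ± 0.76 (adjusted p = 0.00296), and the 3 probe sets had the same direction. Tfap2a, which acts in epidermis and neural crest, showed the reverse, at 4.40 and 4.61 in A1 and A2 against 6.90 in DAC2, 6.39 in DAC8, 6.26 in REF1 and 7.46 in REF2. Tfap2e, measured but not tested, reached 5.39 in DAC2 and 5.94 in REF2 and stayed below 5 in the other lines. The iPS lines thus carried Tfap2c together with Tfap2b. DAC2 and REF2 carried Tfap2c together with Tfap2a and, closer to 5, Tfap2e.

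In the spalt family, Sall1 was the only tested relative that separated A1 from A2. It was at 5.55 in A1, 4.25 in A2, 7.93 in DAC2, 3.95 in DAC8, 4.19 in REF1 and 8.26 in REF2, and was higher in A1 than in A2 (fitted difference 1.30 ± 0.13, limma adjusted p = 0.00163). Since A2 lay below 5, the size of that difference is not read. Sall2 ran opposite to Sall4 between DAC2 and REF1, at 6.22 and 6.12 in A1 and A2, 3.72 in DAC2, 6.35 in DAC8, 6.59 in REF1 and 3.63 in REF2. A1 and A2 were the lines in which Sall4 and Sall2 both lay above 5.

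**Figure D4:**
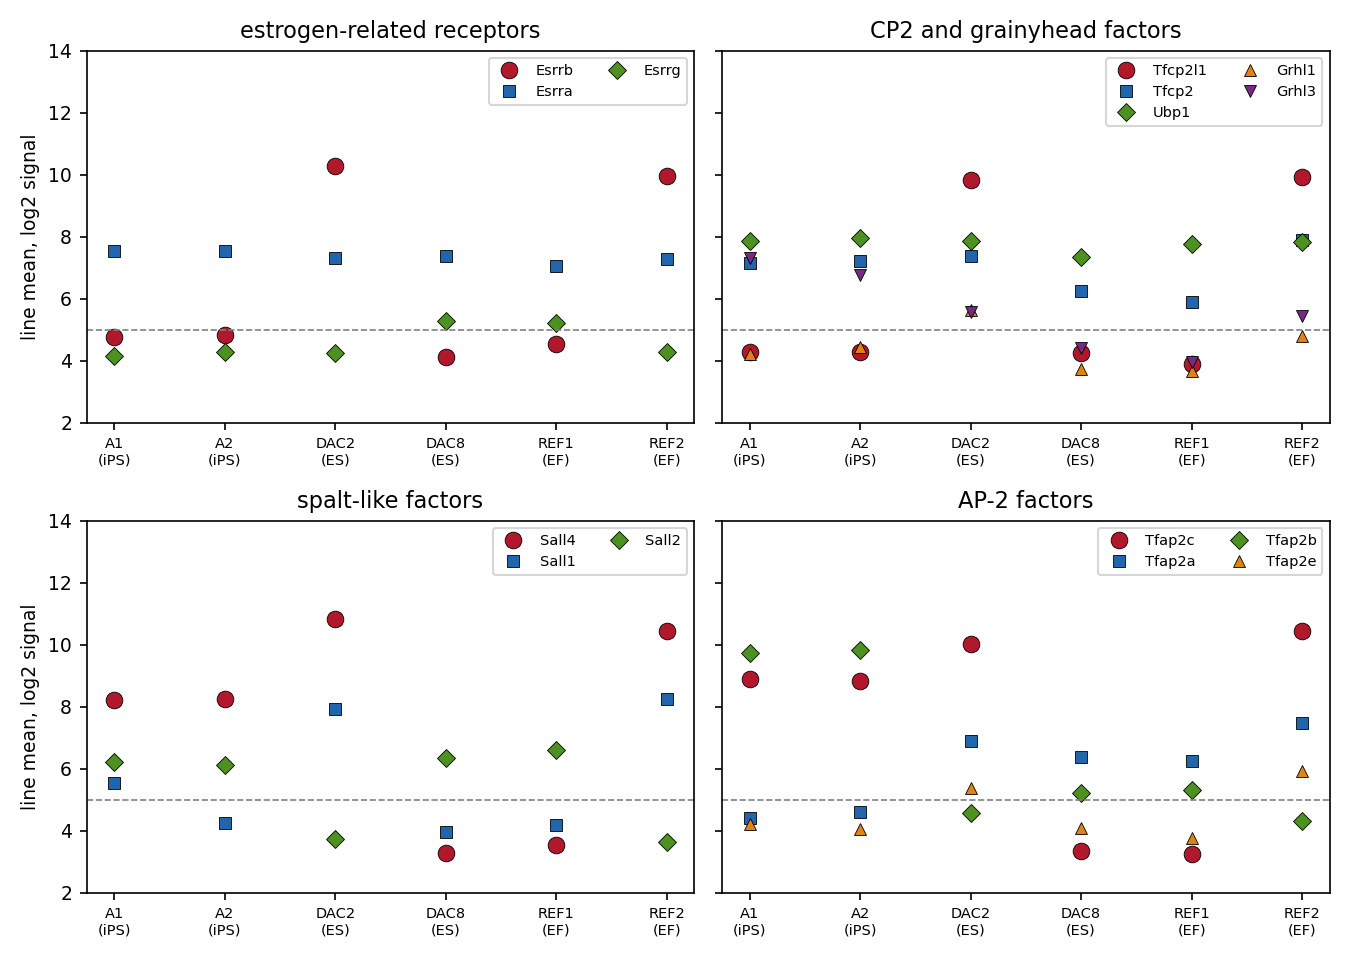
Line means (vertical axis, log2 signal) of each regulator (large red circles) and its measured relatives (other symbols) in the 6 lines or cultures (horizontal axis). The dashed line marks 5. Tfap2b reaches 9.72 and 9.82 in the iPS lines and at most 5.3 elsewhere, and Sall2 lies above 5 in A1, A2, DAC8 and REF1.

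Components of the signals that feed these factors were also listed. Of 17 genes of LIF signalling and of the GSK3 and beta-catenin route, all were tested, and in the iPS lines against DAC2 11 were lower and 6 higher, against 42.9% lower and 39.2% higher over all genes. Lifr, the LIF receptor, was at 5.38 and 5.07 in A1 and A2, against 7.89 in DAC2, 4.94 in DAC8, 5.24 in REF1 and 7.45 in REF2. Il6st, which encodes its partner gp130, was the 1 gene of the list called by label, lower in iPS than in ES by -1.42 ± 0.30 (limma adjusted p = 0.0178) and than in EF by -1.38 ± 0.30 (adjusted p = 0.0207). Lef1 and Axin2, a partner and a target of beta-catenin, differed between the iPS lines and DAC2 by -3.47 ± 0.07 and -2.66 ± 0.09 (log2 ± SE). Other genes of the list were higher in the iPS lines than in DAC2, though not than in every line. The beta-catenin partners Tcf7l2 and Tcf7 were at 7.90 and 8.18 in A1 and 8.02 and 8.29 in A2, against 6.87 and 7.40 in DAC2, and the kinase gene Jak1 was at 8.67 in A1 and 8.71 in A2, against 8.14 in DAC2. Tcf7l2 and Jak1 were higher again in DAC8, at 9.30 and 10.41, and in REF1, at 9.44 and 10.15. Tcf7 was at 8.18 in REF2. Between the iPS lines and DAC2, Stat3 and Socs3, the effector and a target of LIF, differed less, by -0.70 ± 0.09 and -0.47 ± 0.16.

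Transcripts for subunits of NuRD, the complex that Sall4 recruits, reached 5 in every line for all 13 measured genes. In iPS against ES, 0 of the 13 were called by limma, beside only 4.84% of all genes. At an unadjusted p under 0.05 the count was also 0, beside 15.8% of all genes. Against DAC2, 7 were higher and 6 lower in the iPS lines, beside 39.2% and 42.9% of all genes, with a median difference of 0.21 against -0.06 over all genes. Chd3, a remodelling ATPase, had the widest range, at 7.01 and 7.16 in A1 and A2, 6.03 in DAC2, 9.32 in DAC8, 9.14 in REF1 and 6.37 in REF2. Hdac2, a deacetylase subunit, spanned only 0.86.

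Since Sall4 and Tfap2c also act in germ cells and Tfap2c in trophoblast, markers of these cells were set beside them. Of 10 trophoblast markers, 3 or 4 reached 5 in each line. Cdx2 and Eomes, defining factors of trophoblast stem cells, were at 4.72 and 3.32 in A1 and 4.70 and 3.66 in A2, against 9.83 and 7.67 in DAC2 and 8.17 and 6.81 in REF2. Gata2 and Gata3, which act in trophoblast and in several other tissues, ran the other way between these lines, at 9.64 and 7.65 in A1 and 9.83 and 7.71 in A2, against 3.99 and 2.93 in DAC2 and 4.86 and 2.67 in REF2. Of the 6 tested trophoblast markers, 2 were higher and 4 lower in the iPS lines than in DAC2, beside 39.2% and 42.9% of all genes. Of 6 germ cell markers measured, 1 reached 5 in each of A1, A2, DAC8 and REF1 and 4 did in DAC2 and REF2. That 1 marker was Kit in A1 and A2 and Prdm1 in DAC8 and REF1. Prdm1 was at 4.24 and 4.28 in A1 and A2, 4.21 in DAC2, 6.65 in DAC8, 6.13 in REF1 and 5.92 in REF2. Sycp3, a meiotic chromosome protein singled out after its values were seen, was at 3.28 and 3.09 in A1 and A2, 9.12 in DAC2, 3.39 in DAC8, 3.0 in REF1 and 9.93 in REF2. Kit, a receptor of germ cells and other progenitors, was at 5.88 and 5.78 in A1 and A2, 5.68 in DAC2, 4.42 in DAC8, 4.40 in REF1 and 5.42 in REF2. The tested trophoblast markers thus moved in both directions. Among the 4 tested germ cell markers, 2 were lower and 0 higher in the iPS lines than in DAC2 (limma, with 0 higher also at an unadjusted p under 0.05). The share of all genes was 42.9% lower and 39.2% higher. Against REF2 the germ cell markers also moved in both directions, with Kit higher in the iPS lines. With so few genes, no contrast between the lists is drawn.

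Over the 12 arrays, the genes most like each regulator repeated the same 2 patterns. Likeness was the Pearson correlation with the 3107 other genes whose line means spanned at least 2 log2 units. The arrays form 6 lines, so these values mainly reflect the separation of lines. Esrrb and Tfcp2l1 correlated at 0.985 with each other, as did Sall4 and Tfap2c, against 0.672 to 0.797 between the pairs. Closest to Esrrb were Mcee and Dctd, enzymes of propionate and deoxynucleotide metabolism, and Ass1, of arginine synthesis (each 0.998), and Nxn, a redox protein, was the most opposed (-0.998). Closest to Tfcp2l1 were the glycosyltransferase gene Galnt6 (0.996), Rpl39l1 and the homeobox gene Rhox5 (each 0.994), and Dzip1 was the most opposed (-0.993).

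The closest genes to Sall4 and Tfap2c were others. The efflux pump gene Abcc4 (0.999), the spindle checkpoint kinase gene Bub1b and the centrosomal gene Cep70 (each 0.997) were closest to Sall4, and the chaperone gene Dnajb4 was the most opposed (-0.998). Bub1b was at 8.91 and 8.94 in A1 and A2, 9.85 in DAC2, 7.36 in DAC8, 7.25 in REF1 and 9.58 in REF2. Atad5, which unloads the replication clamp, and Slc2a1, the glucose transporter GLUT1 (each 0.999), were closest to Tfap2c, followed by Tspan13 (0.997), and the basement membrane gene Nid2 was the most opposed (-0.998). Correlations of at least 0.95 were reached by 305 genes with Esrrb, 294 with Tfcp2l1, 255 with Sall4 and 242 with Tfap2c.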

How the data were processed

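The deposited log2 signals of 31099 probe sets on 12 arrays were used as given. The submitters' processing notes list RMA and Partek 6.2, with no word on joint normalization of the arrays. Probe sets with 1 symbol in the platform's table (20832, of which 20764 matched a GRCr8 gene identifier and 0 changed symbol) gave 14218 genes, each represented by its probe set with the highest mean. The fit left out 3708 genes with no cell type mean of 5 or more. For cell types, limma 3.58.1 (in R 4.3.3) took the line as random block (consensus correlation 0.966), and a second fit compared the 6 lines. Both used Benjamini-Hochberg adjustment over 10510 genes and were tested on simulated data. The block fit keeps 9 residual degrees of freedom with 6 lines, so its p-values can be too small.

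The members and lists were chosen with earlier results of these data known. Named genes were the members, their relatives, up to 8 genes per list with the widest range of line means, defining markers, and the 3 most and 1 least correlated genes per member. Outside this rule are Klf4, Stat3, Hdac2, Sycp3, Prdm1, Gata2, Gata3, Kit and Nr5a2, named after their values were seen. Alternatives were other filters, normalizations, probe set summaries, an intensity trend, a replicate block, line means, and each array or line left out.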

Additional observations from a re-analysis of the deposited data

How the results depend on the processing

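Differences of the 4 genes between the iPS lines and DAC2 or REF2 kept their direction under each of the 19 alternatives run. Only 2 arrays per line, and no measure of background, limit the precision. Differences by label depended on the line left out. In iPS against ES, without DAC2 Esrrb stood at 0.65 and Tfcp2l1 at 0.03, and without DAC8 Sall4 at -2.58 and Tfap2c at -1.15. In iPS against EF, without REF2 Esrrb stood at 0.24 and Tfcp2l1 at 0.38, and without REF1 Sall4 at -2.19 and Tfap2c at -1.58. The values given for Esrrb and Tfcp2l1 in these comparisons set arrays below 5 against arrays below 5, and no sign is read from them. In ES against EF, Esrrb and Tfap2c were at 3.02 and 3.18 without DAC8 and 2.65 and 3.45 without REF2, and Tfcp2l1 and Sall4 at -2.67 and -3.69 without DAC2 and -2.90 and -3.37 without REF1. With 1 array left out the range was -0.12 to 0.05 for Esrrb, -0.28 to 0.47 for Tfcp2l1 and -0.08 to 0.21 for Sall4.

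In A1 against A2, leaving out an array gave -0.10 to 0.03 for Sall4. In DAC2 against REF2 it gave 0.30 to 0.34 for Esrrb, 0.36 to 0.41 for Sall4 and -0.54 to -0.31 for Tfap2c, with the changed calls named above. Esrrb was no longer called at 0.32 without the filter and at 0.31 after quantile normalization, and Sall4 became called at 0.39 with the trend.

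Counts over all genes moved as follows. For iPS against ES, 509 genes became 890 without the filter, 259 with line means, 74 without line A1 and 60 without A2. For iPS against EF, 562 became 969, 292, 75 and 77 in that order, 874 without DAC2 and 848 without DAC8. For ES against EF, 0 became 2 without DAC8. For A1 against A2, 204 became 357 with the trend and 78 to 176 without an array, and for DAC8 against REF1, 2136 became 1215 to 2057. Without the filter 2 other pluripotency regulators were called in iPS against EF. With Spearman's rho, genes at 0.95 or more numbered 54 for Esrrb, 1 for Tfcp2l1, 41 for Sall4 and 87 for Tfap2c. The cause of these shifts was not tested.

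The replicate numbers gave no pairing: deviations of replicate 1 from the line mean correlated at -0.08 to 0.242 between lines. With the replicate block 478 genes were called in iPS against ES and 502 in iPS against EF, and Esrrb in DAC2 against REF2 kept an adjusted p of 0.0444 (limma).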
